A study of Mus musculus with 10 samples.

Results

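The proteasome subunit genes were taken from a study of newly made RNA and Krüppel-like factor binding in mouse erythroid cell lines. They were chosen by symbol, as every row of the RNA table whose gene name starts with Psm, a letter from a to g and a digit, which gave 49 of 23309 genes. Of these, 45 were among the 9619 genes that passed to the authors' test. Psma8, Psmb8, Psmb9 and Psmb11 were not tested. The symbol rule also takes in Psmc3ip, which encodes a meiotic recombination factor and no part of the proteasome; it is kept in every count.

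J2E-KLF3-ER cells are the J2E line with a KLF3-ER transgene, KLF3 joined to the ligand-binding part of the estrogen receptor and switched on by 4-hydroxytamoxifen, with 1 RNA library from each of the clones A, C and E, all given 200 nM of the drug. They were set against J2E cells, an immortalised fetal liver erythroid line without the transgene, with 3 RNA libraries, of which the first and second received 4-hydroxytamoxifen and the third received ethanol vehicle. RNA made during 30 minutes of labelling with 500 µM 4-thiouridine (4sU) was captured and sequenced. No J2E-KLF3-ER library without the drug is among these, so activation of the fusion and differences between the lines cannot be told apart. KLF3 binding was measured with an estrogen receptor antibody in clone C after 3 hours of drug. KLF1 binding was measured with a KLF1 antibody in K1-ER cells, Klf1-null erythroblasts with an inducible KLF1-ER fusion (clones A and C), also after 3 hours of drug. Each chromatin library pooled 3 replicates and was set against 1 input library.

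The proteasome degrades proteins marked with ubiquitin. Its 20S core is a barrel of alpha and beta rings, with the proteolytic sites on the inner face of beta subunits, and the 19S regulatory particle recognises, unfolds and feeds in substrates through a ring of ATPases. In red cell precursors the ubiquitin-proteasome system clears unpaired globin chains and helps remove proteins as the cells mature. KLF1 is the main activator of erythroid genes in its family, and KLF3 is a repressor that binds similar CACCC and GC-rich sites.

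The RNA table holds 1 pooled FPKM value per group (read fragments corrected for transcript length and sequencing depth) with the authors' log2 fold change, J2E-KLF3-ER over J2E, their p-value and their q-value, a p-value adjusted over all tested genes. It gives no value for a single library, so FPKM values stand here without an error, and the depth is unknown. Separate cultures are not stated for the J2E libraries, and the p-values then measure only the spread between these libraries, which may be technical. In bulk RNA, fewer cells of a type and less RNA per cell cannot be told apart. In the authors' deposited table Klf3 was at 180 FPKM in J2E-KLF3-ER and 7.46 FPKM in J2E, reads of the fusion included. Esr1, an estrogen receptor gene, was at 62.4 FPKM in J2E-KLF3-ER and 14.7 FPKM in J2E there. Whether reads of the fusion's receptor part are included in the Esr1 value was not tested. No chromatin library came from J2E cells without the transgene, so capture of the cells' own receptor by the antibody was not tested. The 8 erythroid markers summed to 404 FPKM in J2E-KLF3-ER and 576 FPKM in J2E in the authors' deposited table, and Klf1, Epor and Slc4a1 fell. The 3 megakaryocyte markers summed to 175 FPKM in J2E-KLF3-ER and 157 FPKM in J2E, and 4 myeloid markers, led by Csf1r, to 23.2 FPKM in J2E-KLF3-ER and 29.1 FPKM in J2E, in the authors' deposited table. Markers of mast cells (3 genes) summed to 0.194 FPKM in J2E-KLF3-ER and 0.0249 FPKM in J2E in the authors' deposited table. Of these, Fcer1a is listed at 0 in both groups. The part of these markers in the values of the proteasome genes was not tested.

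Newly made RNA of 1 proteasome gene changed. Psma2, an alpha subunit of the 20S core, rose in J2E-KLF3-ER, and none of the 45 tested genes fell (authors' q below 0.05 in their deposited table). Over all 9619 tested genes, 0.821% rose and 1.9% fell by the same rule. At the authors' unadjusted p below 0.05, 7 proteasome genes were higher in J2E-KLF3-ER and 1 was lower, in their deposited table, against 7.93% and 7.47% of all tested genes. The 7 are Psma2, Psma5, Psmc5, Psmd2, Psmd6, Psmd7 and Psmg3, and the 1 is Psmd5.

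Small positive log2 fold changes were the common pattern of the other genes. In the authors' deposited table, 38 of the 45 had a log2 fold change above 0 (84.4%), compared with 53.4% of all tested genes. Among the 6052 tested genes with a mean between 6.90 and 47.8 FPKM, which spans the middle of the proteasome genes, the share above 0 was 55.5% in the authors' deposited table. The median log2 fold change was 0.20 for the proteasome genes and 0.03 for all tested genes, computed from the authors' deposited table. Of the 45 genes, 36 lay within 0.5 of 0 on the log2 scale (80.0%), as did 82.3% of all tested genes. These counts describe the list and carry no test, since genes of 1 complex are not independent and the libraries are shared.

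**Figure D1:**
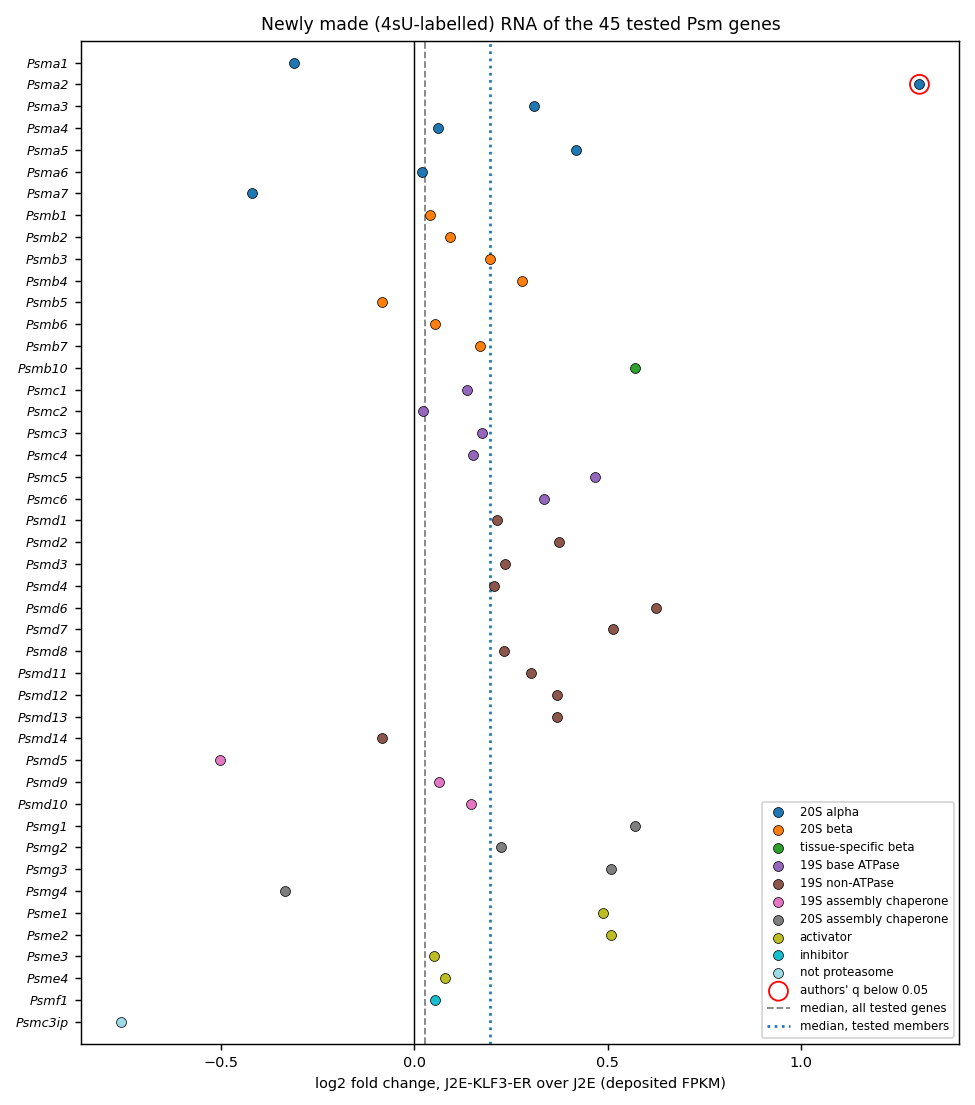
Log2 fold change of newly made RNA, J2E-KLF3-ER over J2E (x axis, log2), for each of the 45 tested Psm genes (y axis, colours by role), 1 deposited value per gene with no error available. Psma2, ringed, stands alone at 1.31 with the authors' q below 0.05, most other points lie just right of 0, and the vertical lines mark the medians of the Psm genes (0.20) and of all tested genes (0.03).

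The alpha subunits form the outer rings of the 20S core and gate entry to it. Psma2 was at 24.1 FPKM in J2E-KLF3-ER and 9.73 FPKM in J2E in the authors' deposited table. The gene lies on chromosome 13 at 14705509 to 14717940 (mm9). Its log2 fold change in the authors' deposited table was 1.31, which is 2.47-fold, with their q = 0.00408, the smallest in the table, which 118 genes share. The 6 other alpha subunits were at 25.3 to 44.1 FPKM in J2E-KLF3-ER and 20.4 to 40.9 FPKM in J2E in the authors' deposited table. Psma2 thus had the lowest level of the 14 constitutive core subunits in J2E and the second lowest in J2E-KLF3-ER, where Psmb6 was lowest. FPKM is scaled by length, so these levels can be set side by side, although genes also differ in how well they are labelled and captured.

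Across the 14 constitutive core subunits the highest FPKM was 2.80 times the lowest in J2E-KLF3-ER and 4.70 times the lowest in J2E, from the authors' deposited table. Without Psma2 these ratios were 2.80 in J2E-KLF3-ER and 2.58 in J2E. Psma2 was the lowest in J2E and neither lowest nor highest in J2E-KLF3-ER, so leaving it out could narrow only the range in J2E. The ratios restate its levels in the 2 groups. On chromosome 13 tested genes had a median of 0.22 (log2 fold change) in the authors' deposited table, and Psma2 stood 1.09 above it. Mrpl32, the neighbouring gene with a gap of 205 bp, was at 9.60 FPKM in J2E-KLF3-ER and 8.97 FPKM in J2E, a log2 fold change of 0.10 (authors' q = 0.940, deposited table).

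No peak of either factor was assigned to Psma2. The KLF3 summit nearest to its start lay 16914 bp away and the nearest KLF1 summit 800318 bp away. Its promoter is shown because it is the gene that changed. The 150 bases before the start are from RefSeq on GRCm38.p6, chr13:14613092-14613241, plus strand, with a CCAAT box in capitals:
Psma2: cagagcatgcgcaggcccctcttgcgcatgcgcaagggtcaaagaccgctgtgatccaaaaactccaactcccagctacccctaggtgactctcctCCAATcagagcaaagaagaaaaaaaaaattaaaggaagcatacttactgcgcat
The CCAAT box starts 54 bases before the start site, and no match to the KLF box CCNCNCCC was found on either strand of the 250 bases searched.

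The remaining alpha subunits gave values on both sides of 0, and none passed the test. Psma5 was at 44.1 FPKM in J2E-KLF3-ER and 33.1 FPKM in J2E in the authors' deposited table, with a log2 fold change of 0.42 (their q = 0.286). Psma7 had 28.1 FPKM in J2E-KLF3-ER and 37.5 FPKM in J2E, a log2 fold change of -0.42 per the authors' deposited table, and Psma1 had 33.0 FPKM in J2E-KLF3-ER and 40.9 FPKM in J2E, a log2 fold change of -0.31. Those of Psma3, Psma4 and Psma6 were 0.31, 0.06 and 0.02 in the authors' deposited table.

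Beta subunits of the core gave small differences. Their 7 log2 fold changes ran from -0.08 to 0.28 in the authors' deposited table, and none was called. Psmb5, which carries the chymotrypsin-like site, was at 28.8 FPKM in J2E-KLF3-ER and 30.4 FPKM in J2E in the authors' deposited table. Psmb6, with the caspase-like site, was at 18.4 FPKM in J2E-KLF3-ER and 17.7 FPKM in J2E, and Psmb7, with the trypsin-like site, at 51.5 FPKM in J2E-KLF3-ER and 45.7 FPKM in J2E, both in the authors' deposited table. The structural subunits Psmb1, Psmb2, Psmb3 and Psmb4 had log2 fold changes of 0.04, 0.09, 0.20 and 0.28 per the authors' deposited table.

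The subunits that replace constitutive ones in immune tissue or testis were low. Psmb8 and Psmb9, catalytic subunits of the immunoproteasome, were at 0.0974 and 0.283 FPKM in J2E-KLF3-ER, and at 0 (as listed) and 1.47 FPKM in J2E, in the authors' deposited table. Psmb10, the remaining catalytic immunoproteasome subunit, was the exception, at 7.48 FPKM in J2E-KLF3-ER and 5.04 FPKM in J2E with a log2 fold change of 0.57 (authors' q = 0.460, deposited table). Psmb11, the thymus-specific subunit, had 1.19 FPKM in J2E-KLF3-ER and 1.22 FPKM in J2E in the authors' deposited table. Psma8, the testis alpha subunit, had 0.048 FPKM in J2E-KLF3-ER and is listed at 0 in J2E in the authors' deposited table.

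**Figure D2:**
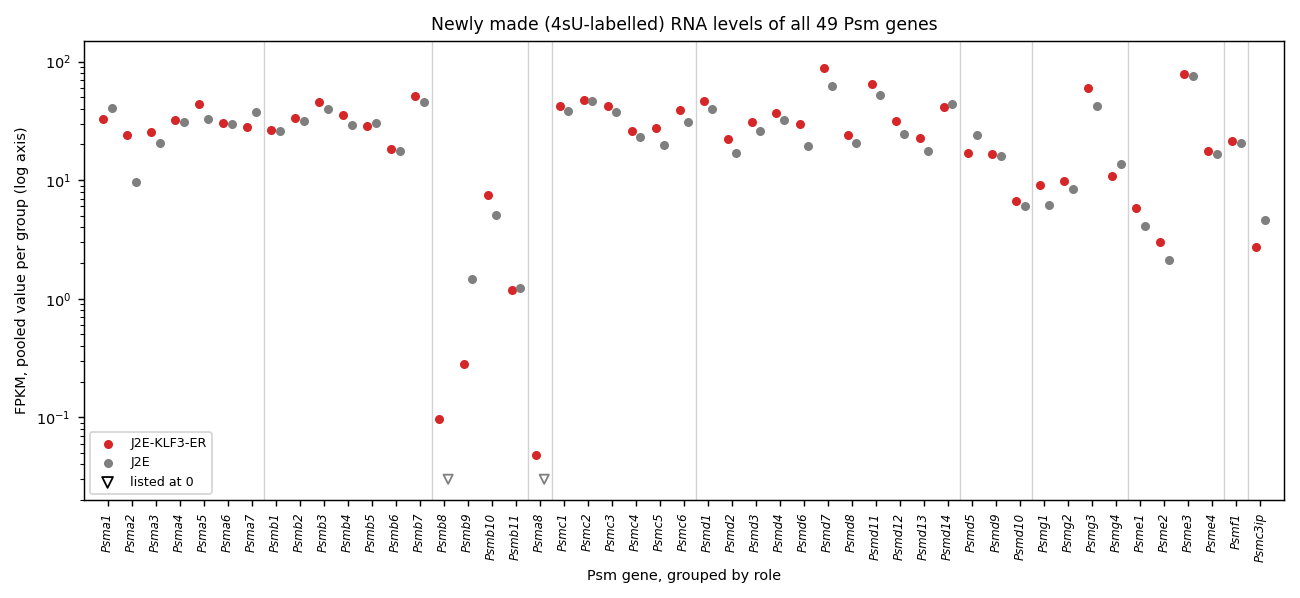
Deposited FPKM (y axis, log scale, 1 pooled value per group, no error available) of newly made RNA for all 49 Psm genes (x axis, grouped by role with grey dividers) in J2E-KLF3-ER (red) and J2E (grey); triangles mark genes listed at 0. Psma2 has the widest gap among the core subunits, 24.1 FPKM in J2E-KLF3-ER against 9.73 FPKM in J2E, while the immunoproteasome genes Psmb8 and Psmb9 sit below 2 FPKM.

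In the 19S regulatory particle, 16 of 17 genes had a log2 fold change above 0 in the authors' deposited table, and none was called. All 6 genes of the ATPase ring, Psmc1 to Psmc6, lay between 0.02 and 0.47, with a median of 0.16, in the authors' deposited table. The highest was Psmc5, at 27.5 FPKM in J2E-KLF3-ER and 19.9 FPKM in J2E (authors' q = 0.294, deposited table). Psmc6 had a log2 fold change of 0.34, Psmc3 of 0.17, Psmc4 of 0.15, Psmc1 of 0.14 and Psmc2 of 0.02 per the authors' deposited table.

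The 11 other subunits of the regulatory particle had the largest median among the roles with 5 or more tested genes, a log2 fold change of 0.30 per the authors' deposited table. The 4 assembly chaperones of the core, below that size, had a higher median of 0.37. Psmd7, the lid subunit that pairs with the deubiquitinase Psmd14, had the highest level of all 49 genes in J2E-KLF3-ER, at 88.7 FPKM against 62.2 FPKM in J2E in the authors' deposited table. Its log2 fold change was 0.51 (authors' q = 0.0695, deposited table), which misses 0.05. Psmd6, another lid subunit, was at 30.0 FPKM in J2E-KLF3-ER and 19.4 FPKM in J2E, a log2 fold change of 0.62 (authors' q = 0.106, deposited table). Psmd14 itself, which removes ubiquitin from substrates, was at 41.5 FPKM in J2E-KLF3-ER and 44.0 FPKM in J2E in the authors' deposited table, the only regulatory subunit below 0 at -0.08.

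Psmd2, a ubiquitin receptor of the base, had a log2 fold change of 0.37 (authors' q = 0.312, deposited table), and the scaffold subunit Psmd1 and the ubiquitin receptor Psmd4 each had 0.21. The lid subunits Psmd3, Psmd8, Psmd11, Psmd12 and Psmd13 had log2 fold changes of 0.23, 0.23, 0.30, 0.37 and 0.37 per the authors' deposited table. Psmd11 was the second highest of the 11 in both groups, at 64.3 FPKM in J2E-KLF3-ER and 52.2 FPKM in J2E in the authors' deposited table.

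Genes for assembly factors lay on both sides of 0, with none called. Psmd5, Psmd9 and Psmd10 help to build the base of the regulatory particle. Psmd5 was at 16.8 FPKM in J2E-KLF3-ER and 23.9 FPKM in J2E, a log2 fold change of -0.50 per the authors' deposited table (their q = 0.181), and it alone among the 45 genes had an unadjusted p below 0.05 on the lower side. Psmd9 and Psmd10 had log2 fold changes of 0.06 and 0.15 per the authors' deposited table. The chaperones Psmg1 to Psmg4 help to build the alpha ring of the core. Psmg3 was at 59.8 FPKM in J2E-KLF3-ER and 42.0 FPKM in J2E, a log2 fold change of 0.51 (authors' q = 0.188, deposited table). Its partner Psmg4 was at 10.9 FPKM in J2E-KLF3-ER and 13.8 FPKM in J2E, a log2 fold change of -0.33 (authors' q = 0.775, deposited table). Psmg1 had 9.14 FPKM in J2E-KLF3-ER and 6.16 FPKM in J2E, a log2 fold change of 0.57 (authors' q = 0.460, deposited table), and its partner Psmg2 had 0.23.

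Activators cap the core in place of the regulatory particle. Psme1 and Psme2, the interferon-inducible subunits of one such cap, were low, at 5.81 and 3.03 FPKM in J2E-KLF3-ER and 4.14 and 2.13 FPKM in J2E, with log2 fold changes of 0.49 and 0.51 and no call per the authors' deposited table. Psme3, which forms the nuclear cap, was at 78.3 FPKM in J2E-KLF3-ER and 75.6 FPKM in J2E, the highest of the 49 in J2E, in the authors' deposited table. Psme4, another activator, and the inhibitor Psmf1 had log2 fold changes of 0.08 and 0.05, and Psmc3ip, at 2.71 FPKM in J2E-KLF3-ER and 4.57 FPKM in J2E, had -0.76 (authors' q = 0.697, deposited table). Psma3, Psma4, Psmd1, Psme1 and Psmc3ip share their locus with another row of the table, as does Psmb5 with the microRNA row Mir686, and whether strand was used in counting is not stated, so their values are uncertain.

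KLF3 peaks were found at 7 of the 49 genes, each with its summit within 118 bp of the start. KLF1 peaks were assigned to 4 other genes, none within 1 kb of the start, and no proteasome gene had peaks of both factors. The whole lists also differ in position: 81.2% of all KLF3 peaks and 41% of all KLF1 peaks lay within 1 kb of their assigned start. Of the 45 tested genes, 6 had a KLF3 peak (13.3%) and 3 a KLF1 peak (6.67%), while 32.4% of all tested genes had a KLF3 peak, 19.1% a KLF1 peak and 13.1% both. Within 1 kb the counts were 6 for KLF3 and 0 for KLF1, beside 29.1% and 10.8% of all tested genes. The proteasome genes were therefore at less than the background for each factor, as a description of 1 pooled library per factor with no test. Whether RNA level bears on these shares was not tested. In the authors' deposited table, 37 of the 45 lay above the median FPKM of tested genes in each group. Among the 6052 tested genes with a mean between 6.90 and 47.8 FPKM, 34.6% had a KLF3 peak and 19.7% a KLF1 peak.

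**Figure D3:**
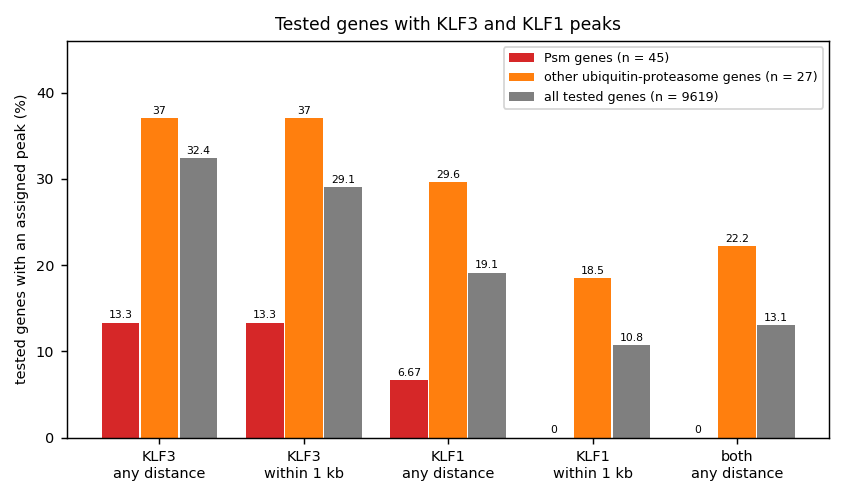
Share of tested genes with an assigned peak (y axis, percent, from 0) for the 45 Psm genes (red), 27 other genes of the ubiquitin-proteasome pathway (orange) and all 9619 tested genes (grey), by factor and distance (x axis). The red bars are the lowest in each group, at 13.3% against 32.4% of all tested genes for KLF3, and stand at 0 for KLF1 within 1 kb and for both factors.

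The KLF3 peaks had enrichments over input between 6.05 and 12.0, as the authors' peak list has them, and all 7 are annotated there as promoter peaks. The median was 8.19 at the proteasome genes and 7.94 over all 4579 KLF3 peaks. The highest lay at Psme2, at chr14:56209762-56210084 (mm9), with an enrichment of 12.0 and its summit 30 bp downstream of the start. At Psma1, chr7:121419620-121419876 had 9.69 with the summit 85 bp upstream. The assembly chaperone genes Psmg1 and Psmg4 both had one, at chr16:96212441-96212820 (9.37, 118 bp upstream) and chr13:34254715-34254927 (8.19, 28 bp upstream).

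Their binding partners, Psmg2 for Psmg1 and Psmg3 for Psmg4, had no KLF3 peak. The other KLF3 peaks lay at Psmd8, chr7:29965523-29965702 (7.90, 73 bp downstream), at Psmb9, chr17:34324229-34324767 (7.35, 112 bp upstream), and at Psmd12, chr11:107340579-107340854 (6.05, 117 bp upstream). Psmb9 lies head to head with Tap1, a peptide transporter gene of antigen presentation, 226 bp apart, so the peak is near both starts; Tap1 was at 0.264 FPKM in J2E-KLF3-ER and 0.854 FPKM in J2E in the authors' deposited table and was not tested.

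No proteasome gene with a KLF3 peak was called. Few tested genes were called at all (0.821% rose and 1.9% fell), so none would be usual for so few genes. The 6 tested genes with a KLF3 promoter peak had log2 fold changes of 0.51 (Psme2), -0.31 (Psma1), 0.57 (Psmg1), -0.33 (Psmg4), 0.23 (Psmd8) and 0.37 (Psmd12) per the authors' deposited table. A further KLF3 summit, assigned to Sirt3, lay 433 bp upstream of Psmd13. Counting any summit within 1 kb whatever its assigned gene, 7 of 38 tested proteasome genes with a RefSeq strand had one (18.4%), as did 31.6% of 7086 tested genes, and for KLF1 the figures were 0 of 38 and 11.7%.

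KLF1 peaks lay at chr12:72069072-72069504, 6360 bp upstream of Psma3, with an enrichment of 20.7, and at chr14:55242226-55242530, 1751 bp upstream of Psmb11, with 11.6. The others lay at chr11:98541930-98542161, 1831 bp upstream of Psmd3, with 8.82, and at chr18:67826166-67826375, 25021 bp downstream of the Psmg2 start, with 5.73. Their median of 10.2 stands beside 9.72 for all 3800 KLF1 peaks. None of these 11 peaks overlapped a peak of the other factor, whereas 34.0% of all KLF3 peaks and 39.3% of all KLF1 peaks did, by at least 1 bp. The nearest summit of the other factor was 5826 bp away or more. Psmg3 was the only proteasome gene among 557 named in a column of the KLF1 list for genes up in a comparison of K1 and K1-ER cells. The column for genes down names 132, with 0 proteasome genes. For scale, 49 of the 23309 genes with an RNA row are proteasome genes. The columns do not define their direction.

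**Figure D4:**
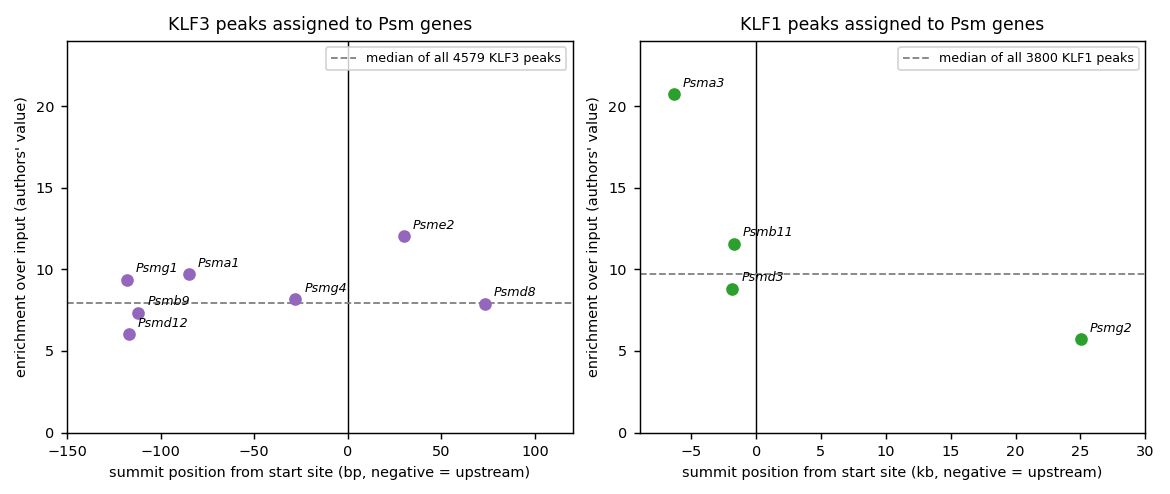
Enrichment over input as the authors give it (y axis, ratio) against the summit's distance from the start site (x axis, bp for the 7 KLF3 peaks on the left, kb for the 4 KLF1 peaks on the right; negative is upstream), 1 point per peak with the gene named. All KLF3 summits sit within 118 bp of a start, with enrichments from 6.05 to 12.0 around the dashed median of 7.94, and all KLF1 summits sit more than 1 kb away. In the whole lists, 81.2% of KLF3 peaks and 41% of KLF1 peaks lie within 1 kb.

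A few of the KLF3-bound promoters are printed to show how they differ in KLF box content: those of Psme2, with the highest enrichment, Psma1, the bound core subunit, and both bound Psmg chaperones. Each is the 150 bases before the start from RefSeq on GRCm38.p6, 5′ to 3′ in gene direction, with matches to CCNCNCCC (either strand) and CCAAT in capitals. The positions are chr14:55591102-55591251 (minus strand) for Psme2, chr7:114276117-114276266 (minus) for Psma1, chr16:95990961-95991110 (minus) for Psmg1 and chr13:34162814-34162963 (plus) for Psmg4:
Psme2: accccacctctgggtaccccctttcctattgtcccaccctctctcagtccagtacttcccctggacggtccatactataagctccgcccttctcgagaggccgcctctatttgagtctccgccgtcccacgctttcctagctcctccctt
Psma1: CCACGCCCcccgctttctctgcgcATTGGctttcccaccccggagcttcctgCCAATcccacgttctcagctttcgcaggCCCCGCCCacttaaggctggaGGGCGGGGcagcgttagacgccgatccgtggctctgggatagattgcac
Psmg1: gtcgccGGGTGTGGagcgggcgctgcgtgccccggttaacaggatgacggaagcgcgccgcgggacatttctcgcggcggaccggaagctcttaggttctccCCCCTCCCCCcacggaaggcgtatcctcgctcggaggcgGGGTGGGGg
Psmg4: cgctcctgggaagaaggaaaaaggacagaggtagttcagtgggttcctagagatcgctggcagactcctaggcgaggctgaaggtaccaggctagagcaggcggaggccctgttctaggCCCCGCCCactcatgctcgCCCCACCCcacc
The Psma1 promoter has KLF boxes starting 150, 70 and 49 bases before the start, and Psmg4 has them at 31 and 12. Psmg1 has 4 matches, of which the one at 144 is CCACACCC on the other strand, the only such match among the proteasome promoters searched. The Psme2 promoter has none in the 250 bases before the start. Its KLF3 summit, the highest of these in enrichment, lay 30 bp downstream of the start, outside the bases searched. Peak positions are on mm9 and promoters on GRCm38.p6, so they are not placed on one another.

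In the 250 bases before the start, 17 of 38 tested proteasome genes with a RefSeq window held CCNCNCCC (44.7%), against 62.7% of 7086 tested genes and 78.9% of the 2147 tested genes with a KLF3 peak within 1 kb. Over all 41 proteasome genes with a window, untested ones included, 19 held it: 5 of the 7 with a KLF3 peak and 14 of the 34 without one (41.2%). The bound genes without a match, Psme2 and Psmd8, had their summits downstream of the start, outside the bases searched. Both strands were searched; the motif overlaps itself, contains CCACACCC and matches GC boxes. CCACACCC was in 1 of the 38 (2.63%) and 3.39% of tested genes. TGANNNNGC, the core of the antioxidant response element used by Nfe2l1 and Nfe2l2, was in 13 of 38 (34.2%) and 36.9% of tested genes, and CCAAT in 13 of 38 (34.2%) and 37.4%. These are matches of letters in a window and say nothing of binding.

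A list of other genes of the pathway was counted in the same way. Of 28 listed assembly factors, shuttles, ubiquitin genes and regulators of the proteasome, 27 had a row and all 27 were tested. Uchl5, a deubiquitinase of the regulatory particle, rose to 23.9 FPKM in J2E-KLF3-ER, against 14.5 FPKM in J2E (log2 fold change 0.72, authors' q = 0.0483, deposited table), and none fell, so 1 of 27 was called, while 0.821% of all tested genes rose and 1.9% fell. The median log2 fold change of the 27 was 0.01, with 14 above 0, per the authors' deposited table. KLF3 peaks were at 10 of the 27 (37.0%) and KLF1 peaks at 8 (29.6%), with both at 6. Among all tested genes these shares were 32.4% for KLF3, near that of the list, 19.1% for KLF1 and 13.1% for both. Within 1 kb of the start, 10 of the 27 had a KLF3 peak (37.0%) and 5 a KLF1 peak (18.5%), beside 29.1% and 10.8% of all tested genes.

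The 6 are Pomp, which guides core assembly, Akirin2, which brings proteasomes into the nucleus, Zfand5, a proteasome stimulator, the transcription factor genes Nfe2l1 and Nfe2l2, and Ngly1, whose product processes the Nfe2l1 protein. At 5 of them, all but Ngly1, a KLF3 and a KLF1 peak overlapped. The KLF1 peak assigned to Ngly1 lay 342766 bp upstream of its start. At Pomp the peaks shared 246 bp, the KLF3 summit lying 42 bp and the KLF1 summit 48 bp upstream of the start. At Akirin2 both summits lay 75 bp upstream. At Nfe2l2 the KLF3 peak had an enrichment of 27.1, rank 49 of its list. None of the 6 was called, where 0.821% of all tested genes rose and 1.9% fell. Pomp was at 38.9 FPKM in J2E-KLF3-ER and 56.6 FPKM in J2E, a log2 fold change of -0.54 (authors' q = 0.193, deposited table), and the others had -0.28 (Nfe2l2), -0.12 (Akirin2), -0.11 (Nfe2l1), -0.08 (Ngly1) and -0.05 (Zfand5) per the authors' deposited table. This list was put together with earlier results of these data known.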

How the data were processed

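RNA was measured in 6 libraries and chromatin in 4. Per the submitters' processing notes, TopHat2 2.0.10, MACS 1.4.2 and MACS2 were used with build mm9; which step used which is not given. The authors' deposited RNA table has FPKM pooled per group, a log2 fold change, p-values and q-values, and a test score that was not used. The authors' deposited peak lists give an enrichment ratio for each peak with its summit and nearest start site, and these assignments were kept at any distance. Recomputing the Benjamini-Hochberg values gave the deposited q-values within 5.26e-07. A per-sample limma test had been designed; with pooled values only, its stated fallback, the authors' q below 0.05, was used. Blank rows (93) were dropped, and 13 peak entries changed into dates were read back as gene names. No per-sample column was left unused (0). Members, roles, the pathway list and motifs were chosen with earlier results of these data known. Every tested member is named, and of the pathway list those called or with peaks of both factors. Start sites for the summit search were locus ends with the RefSeq strand, which 41 of the 49 genes had. Python 3.11.15, pandas 2.3.3, NumPy 2.4.6 and matplotlib 3.10.9 were used, and the calculations were checked on simulated data. Alternatives covered thresholds, adjustment, pseudocounts, filters, centring and peak rules. The values of 1 marker list are not reported here.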

Additional observations from a re-analysis of the deposited data

How the results depend on the processing

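Of 58 alternative values, 53 were labelled as unchanged. Some of these could not have changed, so the number does not measure how stable the results are. The FPKM filter left all 45 tested genes, and Psmc3ip, when left out, had no peak to remove. A count of 0 could not fall under a stricter rule. For a q-value this meant the same side of the threshold, and for a count a move of no more than 1.5 times. For a median or a log2 fold change it meant the same sign and a move of no more than 1.5 times. That limit was chosen here because no spread between replicates is available. None of the medians or log2 fold changes among these values changed sign. The count of risen genes was 2 at the authors' q below 0.1, with Psmd7 added. The count with a log2 fold change above 0, 38 of 45, was 36 when centred on the median of all tested genes. Centred on the chromosome median it was 33, so some single genes then lay below 0. The count with a KLF1 peak was 0 within 1 kb of the start, 0 for any KLF1 summit within 1 kb, which was chosen after seeing the data, and 2 among peaks at or above the list's median enrichment. The count with a KLF3 peak was 4 among peaks at or above the list's median enrichment. Psma2 kept its call with the Benjamini-Yekutieli adjustment (q = 0.0397). No paired analysis was possible because the deposited RNA values are pooled per group and carry no replicate number. For the same reason no library, the vehicle-treated J2E library included, could be left out, and depth is unknown.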
